A study of Mus musculus with 6 samples.

Results

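The BCL-2 family genes were examined in follicular B cells with and without myosin IIa. The family decides whether a cell keeps or breaches its outer mitochondrial membrane. The 10 genes were chosen by name as the survival and death genes of the family, and all 10 were found under 13 of the 25017 entries, or 10 of the 20458 gene names, of the deposited comparison. Each entry combines those transcripts of a gene that carry the same coding sequence. The cells were sorted as B220+AA4.1-CD23+CD21lo, and RNA came from 3 mice of the genotype CD23Cre+Myh9wt/fl and 3 of the genotype CD23Cre+Myh9fl/fl (6 samples in all), of strain C57BL/6. Both genotypes carried Cre recombinase under the CD23 promoter, which removes the floxed exon 3 of Myh9 from 1 allele in wt/fl cells and from both alleles in fl/fl cells. The comparison group was therefore not wild-type but haploinsufficient. The study used young male and female mice for its ex vivo work, and the labels do not give the age or sex of each sequenced mouse.

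For each entry the authors give 1 value per genotype that combines its 3 samples, in fragments normalized for transcript length and sequencing depth (FPKM). These values carry no spread between mice and no read depth, and the authors' own test columns were not used, so the pooled values are set side by side below with no test. Differences are given as log2 ratios of fl/fl over wt/fl after adding 1 FPKM to each value, which understates the difference of low genes. Genes averaging 1 FPKM or more over the genotypes were kept, and a gene was counted as different when the ratio of its raised values was at least 1.5. Among the 9879 genes kept, the median log2 ratio was 0.0026, and the central 95% lay between −0.47 and 0.40.

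The BCL-2 family works through protein binding at the mitochondrion. Pro-survival members (BCL-2, BCL-XL, MCL-1 and A1) hold the effectors BAX and BAK in check. BH3-only members such as BIM, BID, PUMA and NOXA respond to stress or to loss of survival signals, and they bind the pro-survival members or the effectors. Once BAX or BAK is released, it opens the outer membrane and cytochrome c leaves to assemble the apoptosome. Mature follicular B cells are known to need MCL-1 and tonic signals from the antigen and BAFF receptors for survival, and BIM is known for removing B cells that lose them.

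Bcl2 and Bcl2l11 are transcribed into more than 1 coding sequence, and Bcl2a1b belongs to a cluster of near-identical copies, which bears on how their FPKM can be read. The sequences shown first are those at which the forms part, taken from the GENCODE M21 transcripts on build GRCm38. Bcl2 (chromosome 1, minus strand) has an alpha form with 711 coding bases and a beta form with 600, stop codon included, and the first 576 bases are the same in both. The alpha form continues in the next exon, which encodes the membrane anchor, whereas the beta form reads on into the intron. Capitals mark the first 24 bases after the forms part, which in the beta form are all of its own coding bases. The beta stretch lies at chr1:106712281-106712328, and the alpha stretch joins chr1:106712305-106712328 to chr1:106543375-106543398.
Bcl2 alpha form: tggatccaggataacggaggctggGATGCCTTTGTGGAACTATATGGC
Bcl2 beta form: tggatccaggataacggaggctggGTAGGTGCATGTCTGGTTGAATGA

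Bcl2l11 (chromosome 2, plus strand) encodes BIM in forms named extra long, long and short (BimEL, BimL and BimS). Their coding lengths are 591, 423 and 333 bases. The 333 bases of BimS are contained in both of the others and make up 56.3% of BimEL. Another 168 bases are found in BimEL but not in BimL or BimS, and 90 are shared by BimEL and BimL. The forms share their first 124 coding bases, which end at position 128128756, and the stretches start at chr2:128128733-128128756. Capitals mark the 36 bases that follow, within chr2:128128733-128128792 in BimEL, chr2:128128925-128128960 in BimL and chr2:128147085-128147120 in BimS.
BimEL form: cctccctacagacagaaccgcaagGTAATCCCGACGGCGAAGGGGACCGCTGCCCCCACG
BimL form: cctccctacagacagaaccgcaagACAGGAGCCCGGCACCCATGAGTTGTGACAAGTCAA
BimS form: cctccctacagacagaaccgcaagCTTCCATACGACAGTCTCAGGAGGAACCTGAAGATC

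Bcl2a1b encodes A1-b, an NF-κB-responsive pro-survival protein, and lies on chromosome 9 with the copies Bcl2a1a, Bcl2a1c and Bcl2a1d. The coding sequences of Bcl2a1a, Bcl2a1b and Bcl2a1d have 519 bases each and differ at 12 positions in all. Bcl2a1b was 97.9% identical to Bcl2a1a and 98.8% identical to Bcl2a1d. Of the 768 windows of 50 bases in the Bcl2a1b transcript, 57.6% were found unchanged in another copy. The first 72 coding bases, which hold 6 of the 12 differing positions, are shown with those positions in capitals, for Bcl2a1a at chr9:88957051-88957122 (plus strand), Bcl2a1b at chr9:89199360-89199431 (plus strand) and Bcl2a1d at chr9:88731648-88731719 (minus strand).
Bcl2a1a: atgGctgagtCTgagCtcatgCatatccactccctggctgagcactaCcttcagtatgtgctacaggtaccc
Bcl2a1b: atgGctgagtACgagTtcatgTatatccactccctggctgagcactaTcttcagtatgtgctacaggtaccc
Bcl2a1d: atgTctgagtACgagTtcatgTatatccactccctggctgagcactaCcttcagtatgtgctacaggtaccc

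Myh9, the deleted gene, stood at 50.6 FPKM in wt/fl against 21.1 FPKM in fl/fl cells (41.7%), where fragments from the exons outside the deletion still count. B cell genes were high in both genotypes. Cd79b, which encodes a chain of the antigen receptor, was at 1638 and 1739 FPKM, and its partner Cd79a was at 1098 and 1115 FPKM. Past 1.5-fold were 0 of 10 B cell markers, beside 2.32% of all genes kept (1.53% lower and 0.79% higher). Markers of some other cell types also differed between the genotypes. Of 13 neutrophil markers in the deposited table, 9 were kept, 7 of these were lower in fl/fl by at least 1.5-fold and 0 were higher. Of the 7, Ltf (2.31 and 0.118 FPKM) was kept only through its wt/fl value. The summed level of all 13 was 387 FPKM in wt/fl against 73.3 in fl/fl, led by S100a9 and S100a8, with Ngp, Lcn2 and Camp the furthest apart (log2 ratios of −2.65, −2.62 and −2.59), while Elane and Mpo were listed at 0 in fl/fl. The 6 erythroid markers other than Tfrc, which was at 17.5 and 19.4 FPKM, summed to 3.80 and 0.776 FPKM, and 5 of the 6 were lower in fl/fl. Of the 4 plasma cell markers kept, Igj (5.40 and 0.617 FPKM, kept only through its wt/fl value) and Sdc1 (2.30 and 1.13 FPKM) were past 1.5-fold, whereas Irf4 and Xbp1, which B cells also express, had log2 ratios of −0.04 and −0.09. Of the 6 marginal zone markers, Plac8 (138 and 82.1 FPKM) and Cd9 (4.61 and 2.52 FPKM) were past it, both lower, and Mzb1 was at 189 and 140 FPKM. By direction alone 4 of the 6 were lower and 2 higher, the latter being Cd1d1 (15.1 and 15.7 FPKM) and S1pr3 (2.35 and 2.83 FPKM). Of the macrophage markers, led by Cd68 and C1qb, and of the T cell markers, led by Lck and Cd3d, 0 of 5 kept were past it in each list. Neutrophils also transcribe Mcl1, the A1 genes and Bcl2l11, and erythroid cells use Bcl2l1. The part of these cells in the values below was not tested, and in bulk RNA fewer cells of a type and less RNA per cell cannot be told apart.

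Most BCL-2 family mRNAs, like most genes kept, differed little between the genotypes. Of the 10 members, 9 had a mean of at least 1 FPKM, and Bbc3 did not. Of these 9, 6 were higher and 3 were lower in fl/fl cells, beside 4993 higher and 4886 lower of all 9879 genes kept. Over all genes kept the quartiles of the log2 ratio were −0.11 and 0.11, and for 7 of the 9 members it was smaller than 0.15 in either direction. The limit of 0.15 was not part of the planned design, and the share of all genes within it was not counted. Only Bcl2l1 was past 1.5-fold, in the lower direction, that is 1 of 9 beside a background of 2.32% of all genes kept (1.53% lower and 0.79% higher). Bcl2l1 passed the minimum of 1 FPKM only through its wt/fl value, and its fl/fl value lay under it. The count was 1 also with no filter, and 0 among members averaging 5 FPKM or more. The median log2 ratio of the 9 members was 0.07, beside 0.0026 over all genes. By level the order in wt/fl was Mcl1, Bax, Bcl2, Bcl2a1b, Bcl2l11, Bid, Bak1, Pmaip1, Bcl2l1 and Bbc3. In fl/fl, Bcl2 stood before Bax, and Bid and Bak1 before Bcl2l11. Without a spread, neighbors such as Bax and Bcl2 or Bid and Bcl2l11 cannot be ordered beyond error.

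**Figure D1:**
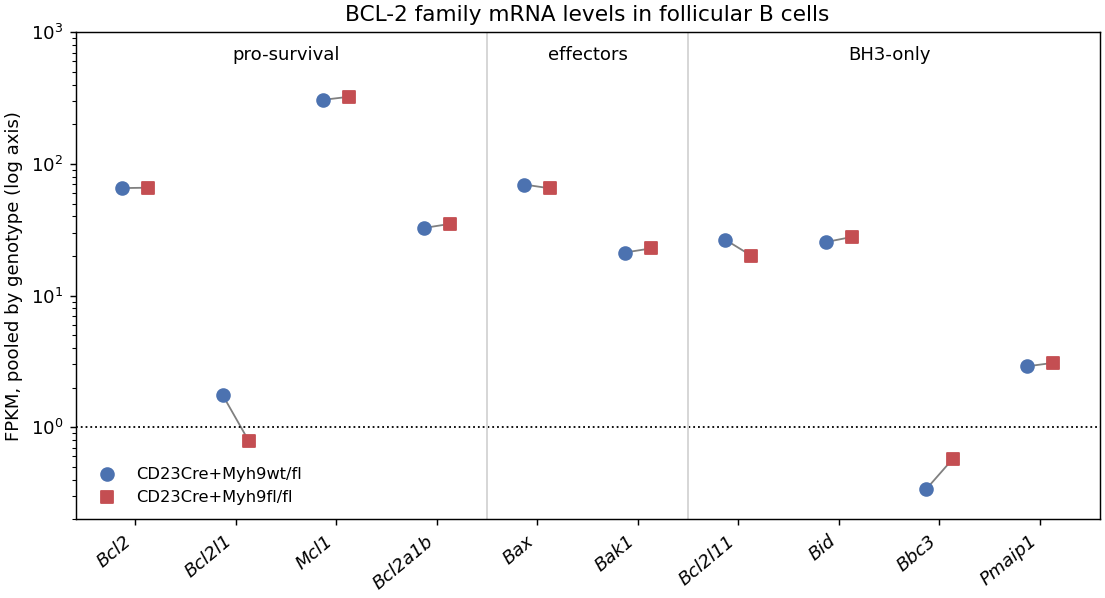
FPKM of the 10 BCL-2 family genes (log axis), as pooled by the authors over 3 samples per genotype; circles are CD23Cre+Myh9wt/fl, squares are CD23Cre+Myh9fl/fl, a line joins the values of a gene and the dotted line is at 1 FPKM. Mcl1 lies above all others in both genotypes, Bcl2l1 and Bbc3 lie lowest, and Bcl2l1, Bbc3 and Bcl2l11 have the steepest lines.

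Among the pro-survival members, Mcl1 was by far the most abundant. Mcl1 (mm9 chromosome 3 from 95462642 to 95467101) encodes a short-lived protein that is renewed by steady transcription and translation. Its level was 307 FPKM in wt/fl against 324 FPKM in fl/fl cells, with a log2 ratio of 0.08. It made up 75.4% of the summed pro-survival FPKM in wt/fl against 76.1% in fl/fl, and its level was at percentile 98.1 of all genes kept in wt/fl against 98.2 in fl/fl. This difference was not tested here.

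Bcl2, the founding member of the family (mm9 chromosome 1 from 108434755 to 108610867), was at 65.5 FPKM in wt/fl against 66.0 FPKM in fl/fl, a log2 ratio of 0.01. The sum hid a crossing of its entries. The first entry was at 29.8 FPKM in wt/fl against 35.7 in fl/fl, and the second at 35.8 in wt/fl against 30.3 in fl/fl. The log2 ratios were 0.25 and −0.23. The first entry thus held 45.4% of Bcl2 in wt/fl against 54.1% in fl/fl, but a difference of this size between entries of a gene was ordinary. Among 1232 genes with at least 2 entries kept, the median difference between the highest and the lowest log2 ratio was 0.50, beside 0.49 for Bcl2. The deposited table does not say which entry holds the alpha and which the beta form shown above.

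Bcl2a1b (mm9 chromosome 9 from 89094110 to 89102676) was at 32.6 FPKM in wt/fl against 35.0 FPKM in fl/fl, a log2 ratio of 0.10. Bcl2a1d was at 3.30 and 4.40 FPKM, with a log2 ratio of 0.33. Bcl2a1a (0.191 and 0.438 FPKM) and Bcl2a1c (0.116 in wt/fl, and listed at 0 in fl/fl) lay under 1 FPKM. With so much sequence shared, the split of fragments among the copies is uncertain. Their sum, 36.2 FPKM in wt/fl against 39.9 FPKM in fl/fl, depends less on that split and had a log2 ratio of 0.14. Bcl2a1b held 90.1% of the sum in wt/fl against 87.9% in fl/fl.

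Bcl2l1, which encodes BCL-XL (mm9 chromosome 2 from 152606403 to 152657418), had the lowest level of the members kept, and was kept only through the genotype in which it was higher. Its single entry was at 1.76 FPKM in wt/fl against 0.785 FPKM in fl/fl, 44.8% of the wt/fl level, with a log2 ratio of −0.63. Ratios of this size were more frequent at low levels, where 3.93% of the 2138 genes from 1 to under 5 FPKM were lower by at least 1.5-fold and 2.43% were higher, against 0.634% and 0.317% of the 3155 genes from 20 to under 100 FPKM. Of the erythroid markers, Alas2 (1.28 and 0.295 FPKM) and Slc4a1 (1.29 and 0.0669 FPKM) were also lower in fl/fl, but both averaged under 1 FPKM, and Tfrc, the 1 erythroid marker kept, was higher (log2 ratio 0.13). Their part in the value of Bcl2l1 was not tested. In either genotype Bcl2l1 was a minor mRNA of the family, with Bcl2 at 37.3 times its level in wt/fl against 84.0 times in fl/fl.

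The effectors were close to level. Bax (mm9 chromosome 7 from 52717064 to 52722268) was at 69.8 FPKM in wt/fl against 65.2 FPKM in fl/fl, a log2 ratio of −0.10. Bak1 (chromosome 17 from 27154979 to 27173323) was at 21.2 and 22.8 FPKM, a log2 ratio of 0.10. The effectors thus differed in opposite directions, and their sum was 91.0 FPKM in wt/fl against 88.0 FPKM in fl/fl. Bax mRNA was 3.28 times as abundant as Bak1 mRNA in wt/fl against 2.86 times in fl/fl. Bax is a known p53 target, and Trp53 itself was at 102 FPKM in wt/fl against 110 FPKM in fl/fl over its 2 entries.

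**Figure D2:**
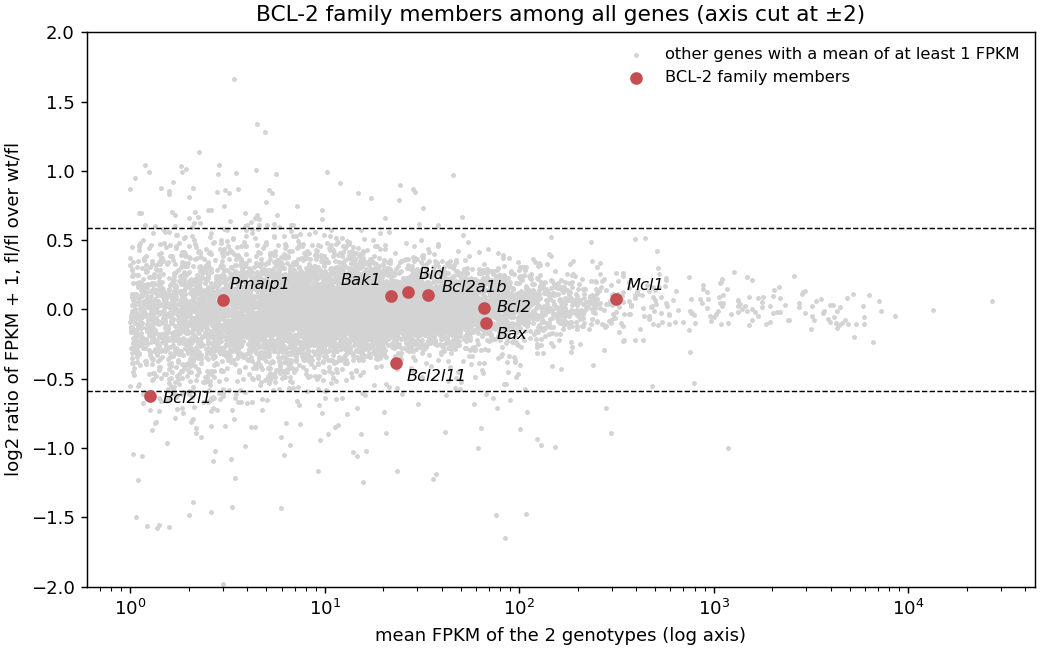
Log2 ratio of FPKM + 1, fl/fl over wt/fl, against the mean FPKM of the 2 genotypes (log axis) for the 9879 genes kept, with the 9 BCL-2 family members kept in red; dashed lines mark 1.5-fold, and 10 genes beyond 2 on the log2 axis are not shown. Bcl2l1 lies at −0.63 among the low genes, where the cloud is widest, Bcl2l11 lies at −0.39, and the other 7 members lie within 0.15 of 0.

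Of the BH3-only members, Bid and Pmaip1 were close to level. Bid, whose protein is cut by caspase-8 and links death receptors to mitochondria (mm9 chromosome 6 from 120843136 to 120866838), was at 25.5 FPKM in wt/fl against 27.9 FPKM in fl/fl, a log2 ratio of 0.13. Pmaip1, which encodes NOXA, an antagonist of MCL-1 (chromosome 18 from 66618257 to 66625212), was at 2.90 and 3.08 FPKM, a log2 ratio of 0.07. Bbc3, which encodes PUMA (chromosome 7 from 16894931 to 16903683), was at 0.340 FPKM in wt/fl against 0.572 FPKM in fl/fl. It lay under 1 FPKM in both genotypes and was not compared further. Bax and Pmaip1, both known p53 targets, thus lay on opposite sides of 0, Bax lower and Pmaip1 higher in fl/fl, each by less than 0.15. Other p53 targets were not gathered here.

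Bcl2l11 was the only member of substantial level with a ratio outside 0.15 of 0, and its entries differed in opposite directions. The gene (mm9 chromosome 2 from 127951773 to 127988283) was at 26.6 FPKM in wt/fl against 20.1 FPKM in fl/fl over its 3 entries, 75.5% of the wt/fl level, with a log2 ratio of −0.39 at percentile 3.79 of all genes. The first entry was at 5.73 FPKM in wt/fl against 8.52 in fl/fl, a log2 ratio of 0.50. The second was at 6.13 and 7.97 FPKM, a log2 ratio of 0.33. The third was at 14.7 FPKM in wt/fl against 3.58 FPKM in fl/fl, 24.3% of the wt/fl level, a log2 ratio of −1.78. A single entry therefore set the direction of the sum, since the first and second together were at 11.9 and 16.5 FPKM, a log2 ratio of 0.44.

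By these pooled estimates the genotypes differed more in the makeup of Bcl2l11 than in its level, which was not tested. The third entry held 55.4% of Bcl2l11 FPKM in wt/fl against 17.8% in fl/fl, and the first held 21.6% against 42.5%. The difference between the highest and lowest log2 ratio of the entries was 2.28, which put Bcl2l11 at rank 43 of the 1232 genes with at least 2 entries kept. This difference can grow with the number of entries, and the 1232 genes were not matched to Bcl2l11 in number or level of entries. Entries of such genes often parted. In 885 of the 1232 genes (71.8%) entries lay on both sides of 0, and in 74 they were past 1.5-fold in both directions. Counted by entry, 2 of 12 member entries were past 1.5-fold, both lower (Bcl2l1 and the third entry of Bcl2l11), beside 6.23% of all entries (3.37% lower) and 17.3% of the entries of genes with several (8.47% lower). FPKM of such entries is an estimate that divides fragments among forms which, as in BIM, share most of their coding bases. The deposited table does not say which of the BIM forms shown above an entry holds. From the GENCODE annotation 4 coding sequences of Bcl2l11 were read, the last of 276 bases, beside 3 entries, and further ones were not looked for.

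**Figure D3:**
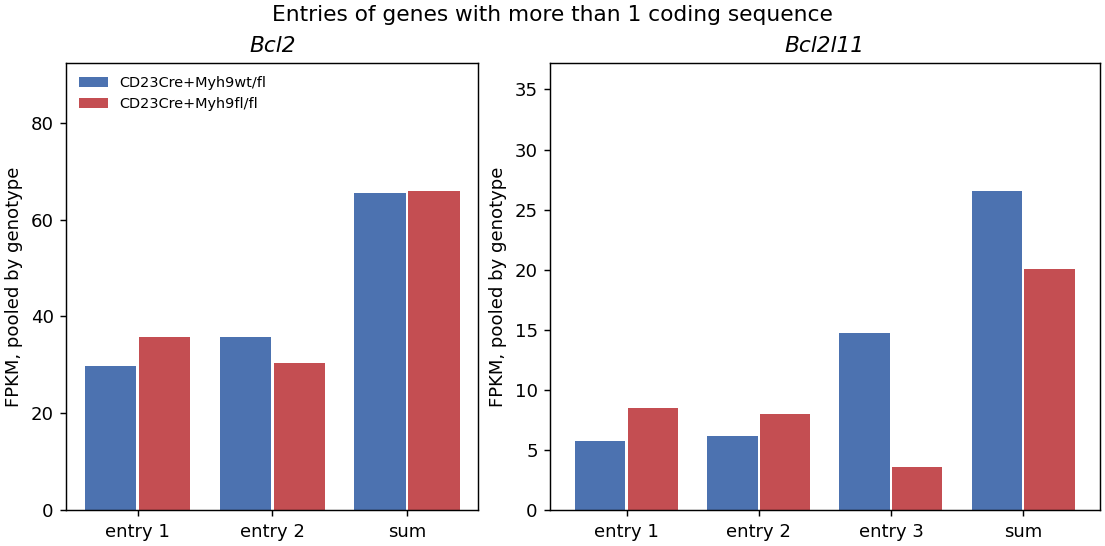
FPKM of each entry of Bcl2 and Bcl2l11 and of their sum (linear axes from 0), as pooled by the authors for CD23Cre+Myh9wt/fl (blue) and CD23Cre+Myh9fl/fl (red); entries are numbered by their wt/fl level from the lowest. The Bcl2 entries cross over while the sum stays at 65.5 and 66.0 FPKM, and the third Bcl2l11 entry stands at 14.7 and 3.58 FPKM while the first and second are higher in fl/fl.

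Summed over the members, pro-survival mRNA was 407 FPKM in wt/fl against 426 FPKM in fl/fl, and the mRNA of effectors and BH3-only members was 146 and 140 FPKM. The ratio of pro-survival to pro-death FPKM was 2.78 in wt/fl against 3.05 in fl/fl. Mcl1 held most of the pro-survival sum (75.4% in wt/fl against 76.1% in fl/fl). With both Mcl1 and Bax left out, the most abundant member of each side, the ratio was 1.31 in wt/fl against 1.37 in fl/fl. No ratio was taken without Mcl1 alone, and Bax was at 69.8 of the 146 pro-death FPKM in wt/fl. Bcl2 mRNA was 2.47 times as abundant as Bcl2l11 mRNA in wt/fl against 3.29 times in fl/fl, a difference that lay in the third Bcl2l11 entry. These ratios compare mRNA per length and say nothing of protein, of which MCL-1 and NOXA are known to be short-lived.

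Genes that act beside the members were compared by 8 lists. Of 53 listed genes, 52 were found in the deposited table and 42 were kept. Of these 42, 1 was higher by at least 1.5-fold and 0 were lower, beside the 2.32% of all genes, and the median log2 ratio was 0.03. By direction alone, 24 of the 42 were higher and 18 lower in fl/fl, beside 4993 higher and 4886 lower of all 9879 genes kept.

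The 1 gene past 1.5-fold was Fas, a death receptor that restrains activated B cells. It was at 4.43 FPKM in wt/fl against 7.19 FPKM in fl/fl, a log2 ratio of 0.59, just over the limit. Here too the entries parted, with 3.36 and 6.55 FPKM in the larger and 1.06 and 0.640 FPKM in the smaller. The death receptor list had the highest median of the 8, 0.23 over 7 genes. Of these 7, 5 were higher and 2 lower, beside 4993 higher and 4886 lower of all genes kept, and other lists below were as uneven. The adaptor Fadd was at 5.42 and 7.61 FPKM (log2 ratio 0.42) and Casp8, the initiator caspase, at 48.6 and 57.2 FPKM (0.23). Cflar, which encodes the caspase-8 inhibitor c-FLIP, was at 45.8 and 42.8 FPKM (−0.09) and Ripk1 at 10.9 and 8.94 FPKM (−0.26).

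The list of apoptosome and caspase genes had a median log2 ratio of −0.08 over 7 genes, 5 of them lower. Apaf1, the scaffold of the apoptosome, was at 8.76 FPKM in wt/fl against 7.08 in fl/fl, a log2 ratio of −0.27. The most abundant were Casp2 at 35.0 and 32.9 FPKM and Cycs, which encodes cytochrome c, at 16.1 and 17.0 FPKM. The inhibitor of apoptosis genes and their antagonists had a median of −0.05 over 7 genes, also with 5 of them lower. Birc3, which encodes cIAP2 and is induced by NF-κB, was the most abundant at 111 FPKM in wt/fl against 138 in fl/fl (log2 ratio 0.31), Birc6 was at 53.4 and 51.5 FPKM (−0.05), and Birc2, which encodes cIAP1, was at 50.4 and 43.8 FPKM (−0.20). All 3 were within 1.5-fold.

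The rest of the family was within 1.5-fold or under 1 FPKM on average. The other BH3-only and BNIP genes had a median of 0.10 over 6 genes, 5 of them higher. Among them, Bmf was at 5.11 and 6.25 FPKM (log2 ratio 0.25), Bad at 6.53 and 7.35 FPKM (0.15), Bnip1 at 26.6 and 29.8 FPKM (0.16) and Bnip3l at 44.4 and 43.4 FPKM (−0.03). Bcl2l2, which encodes the pro-survival BCL-W, was at 4.48 and 3.87 FPKM (−0.17), Bcl2l12 at 23.1 and 23.6 FPKM (0.03), and Bcl2l13 at 7.17 and 7.55 FPKM (0.07). Bok and Bcl2l10 were listed at 0 in both genotypes, and Bik was listed at 0 in wt/fl. Bcl2l15 (0.411 and 1.53 FPKM) and Endog (1.30 and 0.440 FPKM) had ratios past 1.5-fold in opposite directions but means under 1 FPKM. The mitochondrial and nuclease list had a median of 0.09 over 7 genes, 5 of them higher. In it, Vdac2, whose channel protein binds BAK, was at 88.7 and 94.3 FPKM and Vdac3 at 53.3 and 53.5 FPKM. Genes of BCL-2 family turnover had a median of −0.01 over 4 genes, 2 higher and 2 lower. Tpt1, which encodes an MCL-1-binding protein, was at 2293 and 2347 FPKM, and Huwe1, which encodes a ubiquitin ligase for MCL-1, at 68.3 and 65.6 FPKM.

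**Figure D4:**
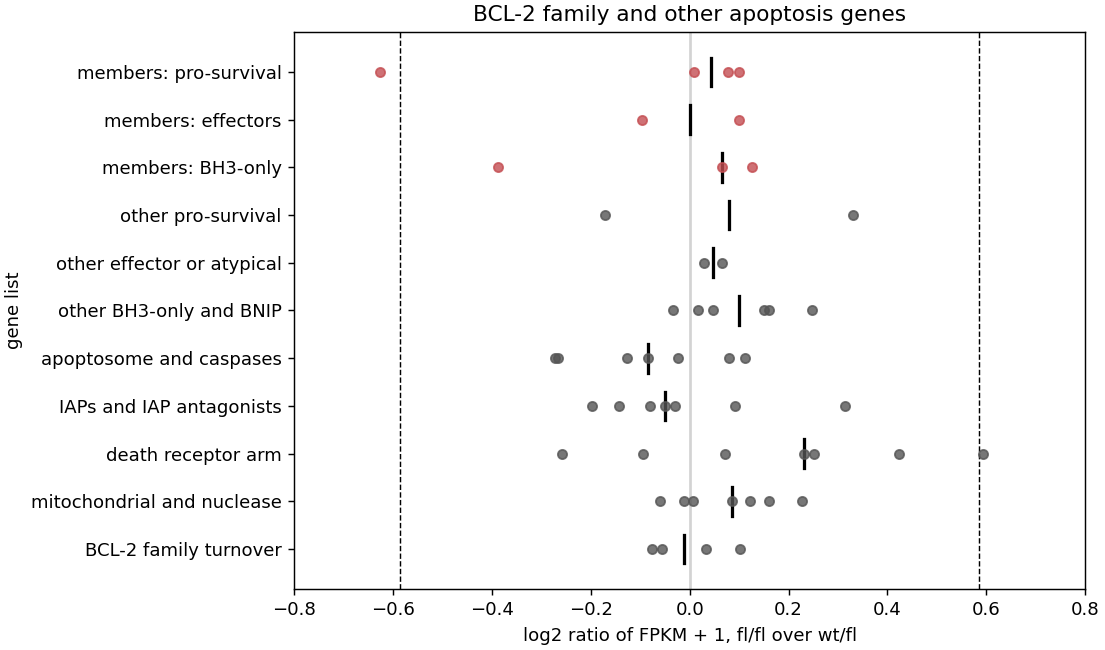
Log2 ratios of FPKM + 1, fl/fl over wt/fl, for the BCL-2 family members (red) and the genes of 8 further apoptosis lists (grey) with a mean of at least 1 FPKM; each point is a gene, the black bar is the median of its list and dashed lines mark 1.5-fold. Bcl2l1 at −0.63 and Fas at 0.59 are the 2 points past the lines.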

How the data were processed

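Follicular B cell RNA was amplified with a NuGen Ovation kit and sequenced from 3 mice per genotype. The submitters' processing notes name Bowtie, TopHat and Cufflinks without versions, and mm10 and GRCm38, whereas the positions in the deposited table lie where mm9 places the genes. Positions were not converted. The deposited values are FPKM, which the authors pooled over the 3 samples of a genotype. Their columns of fold changes, test statistics, p-values and q-values were not used. The design had foreseen pooled values, so no test was made here and depth is unknown. Entries under the same gene name were added up, those averaging 1 FPKM or more were kept, and log2 ratios used a pseudocount of 1 FPKM. Calculations were made in Python 3.11.15 (pandas 2.3.3, numpy 2.4.6). The count of genes past 1.5-fold was checked on wt/fl values of genes averaging 5 FPKM or more, with fixed changes put in and no noise. That check does not bear on low genes or on entries. The members, gene lists and named genes (all members and A1 copies, Myh9, Trp53, and in each list the 2 most abundant genes and those past 1.5-fold, up to the 5 furthest in a cell type list) were chosen with earlier results of these data known, and other named genes after their values were seen. March5 was not found by its symbol. The values of 1 listed gene are left out of the text, although it enters the list counts. Coding sequences were read from GENCODE M21 by transcript. Alternatives were other pseudocounts (0.1 and 0.5), minimum levels, folds and scalings, and entries in place of sums.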

Additional observations from a re-analysis of the deposited data

How the results depend on the processing

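No paired analysis was possible because the deposited values combine all 3 samples of a genotype, and for the same reason no replicate was left out. The count of members past 1.5-fold, 1 of 9, was 0 among genes averaging 5 FPKM or more (1.2% of all such genes), 0 at a fold of 2 (0.496%), 2 at a ratio of 5 to 4 (Bcl2l1 and Bcl2l11, both lower, beside 10.1%) and 2 by entry. It was 1 with the other pseudocounts and scalings and, chosen after seeing the data, with the A1 genes summed. With no filter it was also 1, beside 1.49% of all genes. The pro-survival to pro-death ratio without its most abundant members was 1.31 in wt/fl against 1.37 in fl/fl. A scaling of a whole genotype cannot change this ratio. The log2 ratio of Bcl2l1 was −1.07 with a pseudocount of 0.1, −0.81 with 0.5 and −0.77 with both genotypes scaled up to the same total, where a pseudocount of 1 weighs less. That of Bbc3 was 0.61 and 0.35 with those pseudocounts. Without the third entry, an alternative chosen after seeing the data, Bcl2l11 was at 0.44. Of 93 alternative values, 81 stayed within the tolerances (0.1 on the log2 scale with the same side of 1.5-fold, or 1.5 times for a count or a ratio), 12 did not, and 0 members past 1.5-fold changed direction. Some of the 81 could not move, such as the pro-survival to pro-death ratio under the scalings. A change of direction was looked for only in Bcl2l1, the 1 member past 1.5-fold. Upper quartile, median and total scaling gave a median over all genes of −0.0040, −0.0025 and 0.00071.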
